A study of Mus musculus with 20 samples.

Results

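Klf9 and Klf15 encode zinc finger transcription factors of the Krüppel-like family, and the peaks listed around them were followed through the differentiation of 3T3-L1, a mouse preadipocyte cell line that turns into fat cells after hormonal induction. The peaks lie in 2 windows of mouse build mm9: chr19:23000000-23300000 for Klf9 (300 kb) and chr6:90340000-90500000 for Klf15 (160 kb). All 184 peaks in them were taken, 133 in the Klf9 window and 51 in the Klf15 window, of 284878 peaks in 19 lists. The loci were chosen by measured values of these data: the Klf9 window holds a region, starting at 23068099, that ranks 4 by width among the 938 regions bound by 5 factors. The width and factor content of that region are therefore given as a description.

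DNase I hypersensitive site sequencing (DHS-seq), which maps open chromatin, was done on day 0, at 2 hours, at 4 hours and on day 1, day 2 and day 6. The bound places of proteins were mapped by chromatin immunoprecipitation sequencing. Uninduced cells (day 0) and cells at 4 hours were used for RNA polymerase II (RNA Pol II), C/EBPdelta and C/EBPbeta, and C/EBPbeta was also mapped at 2 hours and on day 2. Stat5a, RXR and GR, the glucocorticoid receptor, have a 4 hours library alone, and PPARgamma has libraries of day 2 and day 6. Day 0 cells were post-confluent and not induced. Cells of 2 hours to day 2 had received dexamethasone, a synthetic glucocorticoid, with insulin, 3-isobutyl-1-methylxanthine, which raises cyclic AMP, and fetal bovine serum; the medium of day 6 cells had been changed on day 2 to serum with insulin and later to serum alone. Each group was 1 library of 1 cell line, so differences between times carry no replicate error. The lists give positions without heights: "gained" means a peak in the later list and none in the earlier, and absence from a list does not show closed or unbound chromatin. List lengths ran from 2076 peaks (RXR) to 35389 (DHS day 1), and read depth is unknown.

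C/EBPbeta and C/EBPdelta are related factors that act early in adipogenesis, before PPARgamma, the main regulator of the fat cell. GR is the receptor of dexamethasone, Stat5a is activated by cytokine and hormone receptors, and RXR pairs with PPARgamma and other nuclear receptors. Both Klf9 and Klf15 are known as genes that glucocorticoids induce in several tissues. Klf15 is also known to promote adipocyte differentiation and to act on glucose and amino acid metabolism.

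In RefSeq (GRCm38.p6), Klf9 (gene ID 16601) lies between the coding genes Trpm3 and Smc5 on chromosome 19, and Klf15 (gene ID 66277) between Cfap100 and Aldh1l1 on chromosome 6. No annotation of mm9 was used, so that each window holds its gene is taken from the definition of the window, no peak is placed in an exon, intron or promoter, and 3T3-L1 marker genes were not checked. The promoters of both genes are shown because they are the regulatory sequence of the 2 members itself. They run from 250 bases before to 50 after the gene start, on the plus strand, at chr19:23140976-23141275 and chr6:90462326-90462625 of GRCm38.p6, a build whose positions are not those of the peaks. The mm9 PPARgamma peaks at chr19:23140982-23141698 and chr6:90462301-90462977 have similar numbers, which does not place them at these promoters. Whether a listed peak covers either promoter was not determined. Capitals mark matches on either strand to the motifs searched.

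Klf9 promoter: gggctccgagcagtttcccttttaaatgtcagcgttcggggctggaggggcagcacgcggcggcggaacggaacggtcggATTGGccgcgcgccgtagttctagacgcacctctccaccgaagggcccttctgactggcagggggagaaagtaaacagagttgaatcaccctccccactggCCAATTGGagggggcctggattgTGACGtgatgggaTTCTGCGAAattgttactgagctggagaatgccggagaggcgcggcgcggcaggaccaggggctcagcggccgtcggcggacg

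Klf15 promoter: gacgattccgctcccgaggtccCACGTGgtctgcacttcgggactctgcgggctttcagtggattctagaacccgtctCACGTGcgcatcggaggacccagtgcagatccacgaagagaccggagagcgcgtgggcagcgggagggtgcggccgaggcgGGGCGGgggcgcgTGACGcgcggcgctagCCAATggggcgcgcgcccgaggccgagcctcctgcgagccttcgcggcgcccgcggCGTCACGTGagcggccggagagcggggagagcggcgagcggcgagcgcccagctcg

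The motifs were TTGCNNAA (C/EBP), AGAACA (a GR half-site), TTCNNNGAA (Stat5), AGGTCA (a nuclear receptor half-site), GGGCGG (GC box), CCAAT (the box of that name), TGACG (a CREB half-site) and CACGTG (E-box). The Klf9 promoter held 3 CCAAT boxes, of which 2 overlap on opposite strands, 1 CREB half-site and 1 Stat5 motif. The Klf15 promoter held 3 E-boxes, 2 CREB half-sites, of which 1 overlaps an E-box, 1 GC box and 1 CCAAT box. Neither held the C/EBP motif, the GR half-site or the nuclear receptor half-site. Of 32851 RefSeq promoters of this length, 37.4% held the CCAAT box, 20.8% the CREB half-site, 8.3% the Stat5 motif, 7.15% the E-box, 35.7% the GC box, 10.8% the C/EBP motif, 19% the GR half-site and 16.3% the nuclear receptor half-site. GC content was 63.3% for Klf9 and 73.3% for Klf15, against a median of 52.7%. These matches describe letters, not bound sites.

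The Klf9 window (300 kb) held peaks in all 19 lists and the shorter Klf15 window (160 kb) in 12. In the Klf9 window, C/EBPbeta at 4 hours had the most peaks (15), followed by DHS at 4 hours and on day 1 (13 each) and C/EBPdelta at 4 hours (11). Stretches of the genome of the same length held a median of 2 peaks in the first 3 of these lists and 1 in the C/EBPdelta list. The fullest stretches held 30, 49, 39 and 26 peaks, in the order the lists are named. In the Klf15 window, DHS day 1 and PPARgamma day 6 had the most peaks (7 each), against medians of 1 and 0 and maxima of 30 and 14. No peak was listed there for DHS day 0, DHS 2 hours, C/EBPdelta day 0, Stat5a, RXR or either RNA Pol II library. Stretches of the same length held a median of 0 peaks in each of these lists, so such an absence is common. The 133 peaks of the Klf9 window merged into 27 separate regions and the 51 of the Klf15 window into 18.

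**Figure D1:**
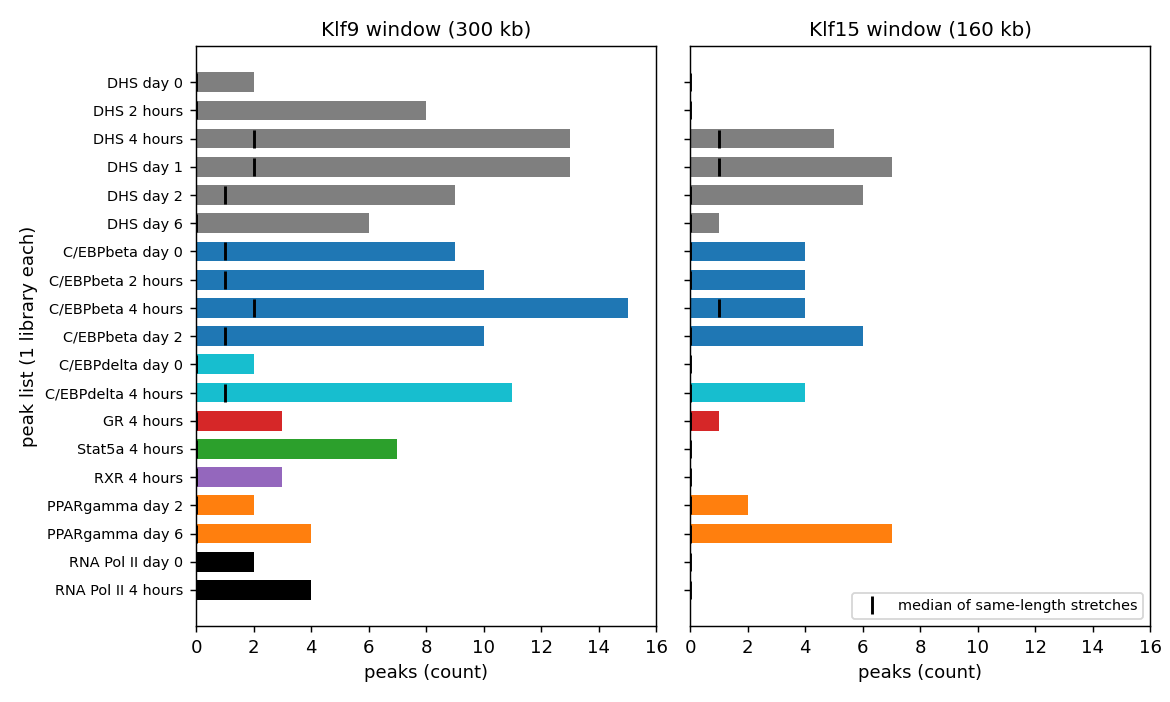
Number of peaks (x axis, count) in each of the 19 lists (y axis) in the Klf9 window (left, 300 kb) and the Klf15 window (right, 160 kb), 1 library per list with no error bars; black ticks give the median over stretches of the genome of the same length. C/EBPbeta at 4 hours has the longest bar on the left (15 peaks), and DHS day 1 and PPARgamma day 6 the longest on the right (7 each).

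The window edges cut through no peak. At the left edge of the Klf9 window the nearest peak inside was C/EBPbeta at 4 hours, 760 bp from the edge, and the nearest outside C/EBPdelta at 4 hours, 1.9 kb away. At its right edge these were DHS at 4 hours, 22.9 kb inside, and RNA Pol II of day 0, 48.0 kb outside. For the Klf15 window the nearest peaks lay 526 bp inside and 7.8 kb outside on the left, and 10.6 kb inside and 15.9 kb outside on the right.

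More of the Klf9 window was listed as open at 4 hours and on day 1 than before or after. DHS peaks numbered 2 on day 0, 8 at 2 hours, 13 at 4 hours, 13 on day 1, 9 on day 2 and 6 on day 6. They covered 1483, 5103, 10000, 7983, 7331 and 4478 bp. Counts and covered length were thus lowest on day 0. Counts fell again after day 1, and covered length after 4 hours. The whole lists moved in a similar way, with 9989 peaks on day 0, 9055 at 2 hours, 31751 at 4 hours and 11936 on day 6, and the part of list length in the local change was not tested. Between day 0 and 2 hours the window went from 2 peaks to 8 and the whole list from 9989 to 9055. No genome-wide share gained by 2 hours was computed, so these values are a description.

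The DHS peaks of the Klf9 window merged into 17 regions, of which 2 were listed at all 6 times, against 8.76% of DHS regions genome-wide. These were chr19:23102582-23103205, where C/EBPbeta was also listed at each of its 4 times, and chr19:23214552-23216055, where no C/EBP peak was listed at any time and RNA Pol II was. Of the 12 regions open on day 0 or at 4 hours, 10 were gained by 4 hours (83.3%, 95% Clopper-Pearson interval 51.6 to 97.9, counting error only), and none was lost. Genome-wide 69.3% of such regions were gained, a share inside that interval. Neighbouring regions are not independent, and the parts of the wide region, for which the window was chosen, count separately. The interval is therefore no test. Of the 12 regions of 4 hours, 7 were absent on day 6, against 67.7% genome-wide, and 5 were still listed.

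**Figure D2:**
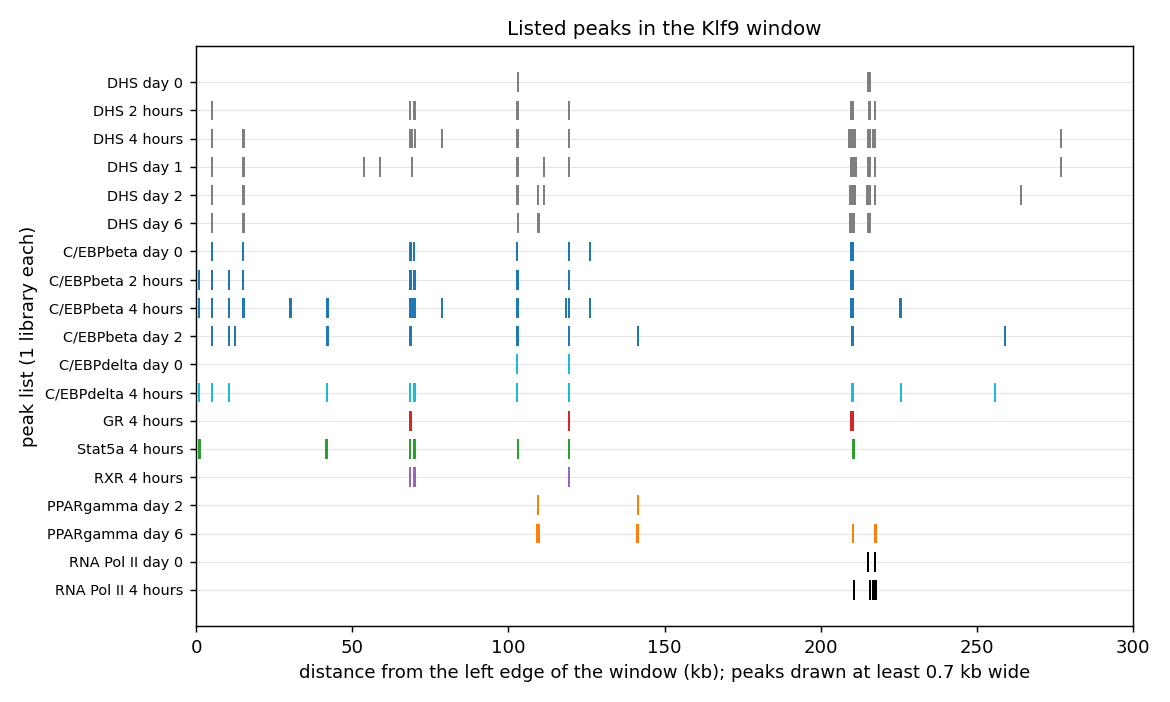
Peaks of the 19 lists (y axis) along the Klf9 window (x axis, kb from its left edge), narrow ones widened so that they can be seen. Factor peaks of 4 hours pile up at few places, and the RNA Pol II peaks all lie on the right, past a stretch of 67.2 kb with no peak.

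Of the 10 regions gained by 4 hours in the Klf9 window, 6 were already in the 2 hours list (genome-wide share not computed). Of these 6, 1 was last listed at 4 hours, 2 on day 1, 1 on day 2 and 2 on day 6. The 2 last listed on day 1 are the regions where all 5 factors met at 4 hours (the left part of the wide one, described next). Both were thus in the 2 hours, 4 hours and day 1 lists and in none of the others.

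The wide region, chr19:23068099-23070300, covered 2202 bp against a median of 945.5 bp for the 938 regions with all 5 factors. It was not 1 site but 2 clusters of peaks. The left cluster (1468 bp, to 23069566) held a peak of 11 lists: C/EBPbeta at its 4 times, DHS at 2 hours, 4 hours and day 1, and C/EBPdelta, GR, Stat5a and RXR at 4 hours. All 5 factors shared 663 bp of it, from 23068258 to 23068920. The right cluster (772 bp, from 23069529) held 8 lists and 4 of the factors, without GR, and also lacked C/EBPbeta of day 2 and DHS of day 1. Its 4 factors shared 530 bp, and the middles of their peaks lay within 27 bp of each other, against 368.5 bp for the 5 factors of the left cluster. The left value includes the 1377 bp C/EBPbeta peak of 4 hours. That peak runs to 23069566, past the ends of the GR, Stat5a, RXR and C/EBPdelta peaks. The clusters were joined by 38 bp that a C/EBPbeta peak and a C/EBPdelta peak of 4 hours had in common.

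**Figure D3:**
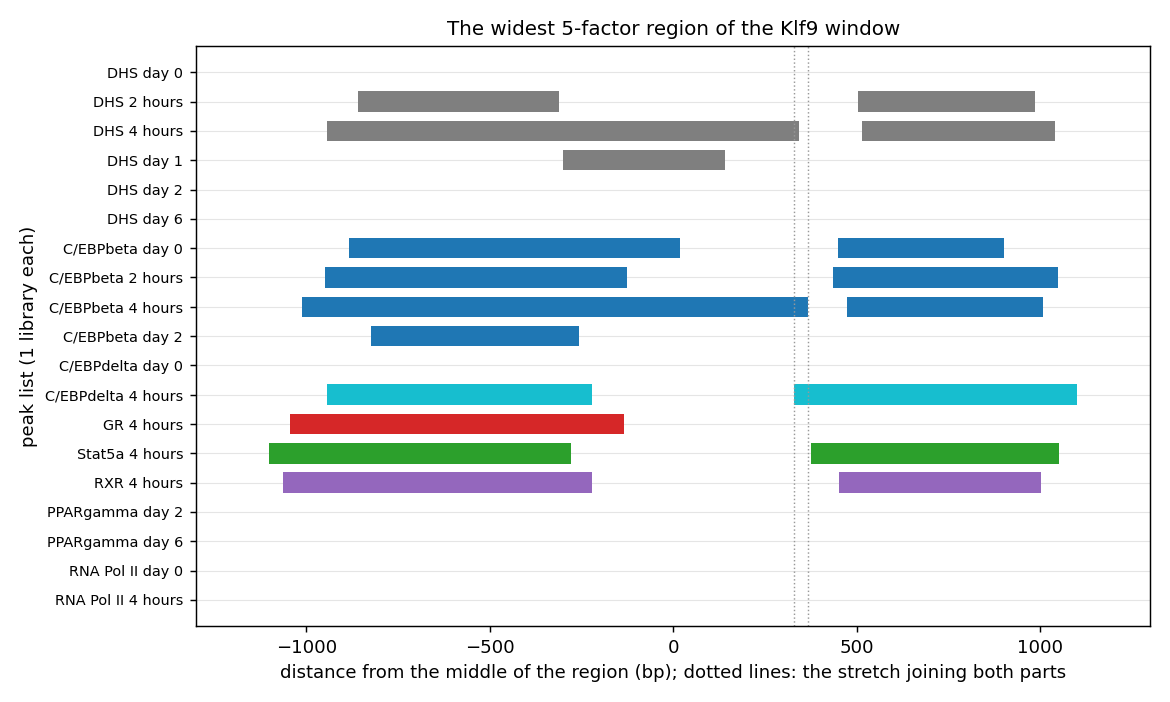
Peaks of the 19 lists (y axis) around the middle of the wide region of the Klf9 window (x axis, bp), drawn to scale, with dotted lines at the 38 bp that join its parts. GR and C/EBPbeta of day 2 have bars on the left only, and C/EBPbeta of 4 hours is the longest bar at 1377 bp.

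Within the wide region, the left C/EBPbeta peak was 901 bp wide on day 0, 822 bp at 2 hours, 1377 bp at 4 hours and 568 bp on day 2. The right one was 452, 611 and 534 bp wide at the first 3 times and not listed on day 2. C/EBPbeta was thus listed at both clusters before induction and at the left one alone on day 2. DHS went from no peak on day 0 to 2 peaks at 2 hours (549 and 482 bp) and 2 at 4 hours (1286 and 526 bp). On day 1, 1 DHS peak of 440 bp was listed, starting at 23068900, near the right end of the shared 663 bp and at the edge of the 2 hours peak, which ended at 23068888. PPARgamma, C/EBPdelta of day 0 and RNA Pol II were not listed there.

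Of the 15 regions with any of the 5 factors at 4 hours in the Klf9 window, 6 held 3 or more (15.7% genome-wide) and 2 held all 5 (2.65% genome-wide). The window was chosen for such a region, so these counts are descriptions. The other region with all 5 was chr19:23118967-23119868, 902 bp wide. There C/EBPbeta peaks were 769 bp wide on day 0, 816 bp at 2 hours, 859 bp at 4 hours and 590 bp on day 2, C/EBPdelta was listed on day 0 (598 bp) and at 4 hours (772 bp), and the GR, Stat5a and RXR peaks were 840, 746 and 453 bp wide. Unlike the wide region it already held C/EBPdelta on day 0. Its DHS peaks were 569 bp at 2 hours, 707 bp at 4 hours and 552 bp on day 1. With every peak set to 200 bp around its middle, this region kept all 5 factors and the wide region did not. With the wider peaks of each list alone, or with lists of equal length, the wide region kept all 5 and this one did not.

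The region with 4 factors, chr19:23209258-23210747, lacked RXR. It held the widest GR peak of the window (1459 bp), C/EBPbeta at its 4 times, DHS from 2 hours to day 6, PPARgamma on day 6 and RNA Pol II at 4 hours. With overlapping peaks joined it formed the region with most lists in the window, 14 of 19 (chr19:23208884-23211317). The remaining 3 regions, at chr19:23000760-23001443, chr19:23041430-23042498 and chr19:23102547-23103204, each held C/EBPbeta, C/EBPdelta and Stat5a. DHS was listed at the last of them at all 6 times and at the other 2 at none. All 3 GR regions of the window held C/EBPbeta.

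C/EBPbeta, followed alone, had 9 peaks in the Klf9 window on day 0, 10 at 2 hours, 15 at 4 hours and 10 on day 2. The whole lists moved in a similar way, with 20471, 19703, 29957 and 21486 peaks, and the part of list length was not tested. The peaks of the window formed 18 regions, 5 of them bound at all 4 times (22.5% genome-wide). Of 15 regions bound on day 0 or at 4 hours, 7 were gained by 4 hours (46.7%, interval 21.3 to 73.4), close to the genome-wide 42.4%, and none was lost. Of the 9 day 0 peaks, 1 lay in the DHS list of day 0 and 8 in that of 4 hours, against 15.5% and 46.4% of all 20471 day 0 peaks. The peaks are not independent, since 2 lie in the wide region, for which the window was chosen, and 2 in the 4-factor region. The interval of 8 of 9, 51.8 to 99.7%, is therefore no test, and these counts are descriptions. C/EBPdelta had 2 peaks on day 0, both still listed among the 11 of 4 hours. Its whole lists held 2581 peaks on day 0 and 18327 at 4 hours, and no genome-wide share kept or gained was computed. The part of list length in the local change was not tested.

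RNA Pol II was listed over more of the Klf9 window at 4 hours than on day 0, in more and on average shorter peaks. On day 0 it had 2 peaks, of 593 bp (from 23214691) and 754 bp (from 23217048), which covered 1347 bp with a mean width of 673.5 bp. At 4 hours it had 4 peaks, of 260, 615, 251 and 922 bp, which covered 2048 bp with a mean width of 512 bp. Merged, they formed 5 regions: 3 gained by 4 hours, 1 lost and 1 kept, against 23.3%, 35.2% and 41.5% of 18710 RNA Pol II regions genome-wide. The intervals, 14.7 to 94.7% for gained and 0.505 to 71.6% for lost and for kept, hold these genome-wide shares. The 5 regions lie close together and are not independent, so the intervals are no test and the counts are descriptions. Of the gained ones, chr19:23210420-23210679 overlaps the GR, C/EBPbeta and Stat5a peaks of the 4-factor region, and chr19:23215428-23216042 and chr19:23216593-23216843 lie between the 2 peaks of day 0.

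The lost region, chr19:23214691-23215283, ended 144 bp before a gained one began. Both lie in the DHS region listed at all 6 times, and joining peaks up to 500 bp apart made them 1 kept region, with 1 gained, none lost and 2 kept in all. The kept region, chr19:23216980-23217901, grew from 754 bp to 922 bp in listed width and held DHS from 2 hours to day 2 and PPARgamma on day 6. Across the 3211 bp from the lost to the kept region, DHS covered 1038 bp on day 0, 1203 bp at 2 hours, 2389 bp at 4 hours, 1579 bp on day 1, 2097 bp on day 2 and 988 bp on day 6. The value of 4 hours was the highest and that of day 6 the lowest. No peak of C/EBPbeta, C/EBPdelta, GR, Stat5a or RXR was listed there. The middle of the kept region was 148.2 kb from that of the wide region, and that of the 4-factor RNA Pol II peak 141.3 kb.

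**Figure D4:**
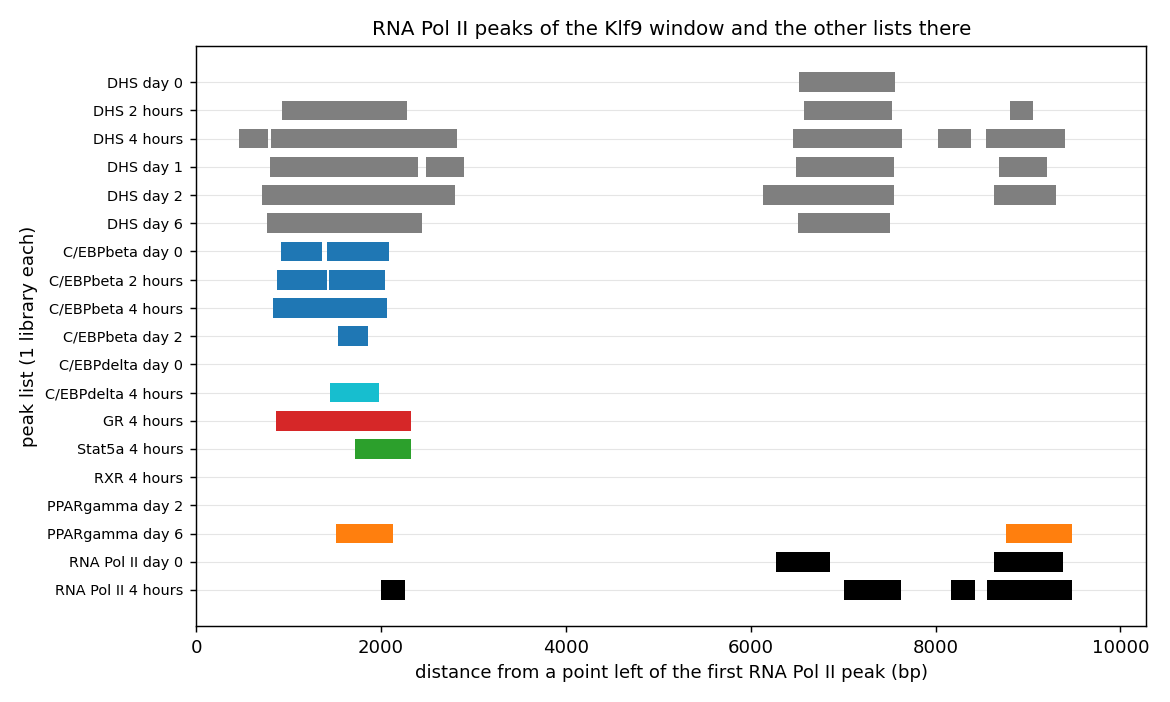
Peaks of the 19 lists (y axis) over the RNA Pol II peaks of the Klf9 window (x axis, bp), drawn to scale. The 4 hours library has 4 RNA Pol II peaks and day 0 has 2; the leftmost 4 hours peak lies under GR, C/EBPbeta and Stat5a bars, and the others lie where no early factor is listed.

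PPARgamma had 2 peaks in the Klf9 window on day 2 and 4 on day 6, in whole lists of 3168 and 5493 peaks. Those of day 2 were kept on day 6, at chr19:23108970-23110067, where DHS was listed on day 2 and day 6 and no early factor at any time, and at chr19:23140982-23141698, where C/EBPbeta was listed on day 2 alone. The 2 sites of day 6 alone (51.7% of PPARgamma regions genome-wide) were the 4-factor region and the kept RNA Pol II region. The first pair thus lay where none of the 5 factors was listed at 4 hours, and the second pair where GR and both C/EBPs, or RNA Pol II, had been. Neither region with all 5 factors held PPARgamma. No genome-wide share was computed for PPARgamma at regions with or without these factors, or for sites kept from day 2 to day 6. These placements are therefore descriptions.

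In the Klf15 window C/EBPbeta was listed from day 0, open chromatin from 4 hours and PPARgamma mostly on day 6. DHS had no peak on day 0 or at 2 hours, 5 at 4 hours, 7 on day 1, 6 on day 2 and 1 on day 6. They covered 2829, 3316, 3317 and 536 bp from 4 hours on. All 5 regions of 4 hours were gained since day 0 (interval 47.8 to 100%), and all 5 were absent on day 6. The genome-wide shares, 69.3% and 67.7%, lie inside this interval. Of the 10 DHS regions none was listed at all 6 times (interval 0 to 30.8%, which holds the genome-wide 8.76%). The single day 6 peak, at chr6:90416012-90416547, was first listed on day 2.

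C/EBPbeta had 4 peaks in the Klf15 window on day 0, 4 at 2 hours, 4 at 4 hours and 6 on day 2. The whole lists held 20471, 19703, 29957 and 21486 peaks at these times. The sites of the first 3 times were the same 4, with none gained and none lost by 4 hours (0 of 4, interval 0 to 60.2%). The genome-wide share gained, 42.4%, lies inside that interval. They lay at chr6:90375838-90376471, chr6:90415894-90416576, chr6:90451337-90452140 and chr6:90464189-90464836, and the last 3 were listed on day 2 as well. These were 3 of the 7 C/EBPbeta regions of the window (interval 9.9 to 81.6%), and 22.5% of regions genome-wide were bound at all 4 times. C/EBPdelta was not listed on day 0 and at 4 hours had 4 peaks, 1 at each of these sites. Its whole lists held 2581 and 18327 peaks at these times, and the part of list length was not tested. Of the 4 C/EBPbeta peaks of day 0, none lay in the day 0 DHS list (interval 0 to 60.2%) and 1, at chr6:90451337-90452140, in that of 4 hours (interval 0.631 to 80.6%). The genome-wide shares, 15.5% and 46.4%, lie inside these intervals.

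At the site from 90451337, C/EBPbeta peaks were 661 bp wide on day 0, 641 bp at 2 hours, 804 bp at 4 hours and 621 bp on day 2. DHS peaks there were 623 bp at 4 hours, 403 bp on day 1 and 603 bp on day 2. PPARgamma (677 bp) followed on day 6. At the site from 90464189, the DHS peaks of 4 hours, day 1 and day 2 began at or just past its right end, from 90464819 on, and PPARgamma of day 6 lay at chr6:90465065-90465543. This site and its neighbouring DHS and PPARgamma peaks merged to chr6:90464189-90465543. Both places held a peak of 9 lists, the most in the window.

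None of the 5 factor regions of the Klf15 window held 3 or more factors (interval 0 to 52.2%), and the genome-wide 15.7% lies inside that interval. Of these 5 regions at 4 hours, 4 held C/EBPbeta with C/EBPdelta and 1 held GR without either. The GR peak, chr6:90421115-90421756 (642 bp), lay in DHS peaks of 4 hours (648 bp), day 1 (927 bp) and day 2 (746 bp), and overlapped a PPARgamma peak of day 2 (512 bp). It was not in the DHS list of day 0, 2 hours or day 6. GR without C/EBPbeta was found at 8.35% of 4071 GR regions genome-wide. In the Klf9 window each GR region held C/EBPbeta, C/EBPdelta and Stat5a. These are 3 regions and 1, so the contrast between the windows is a description.

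**Figure D5:**
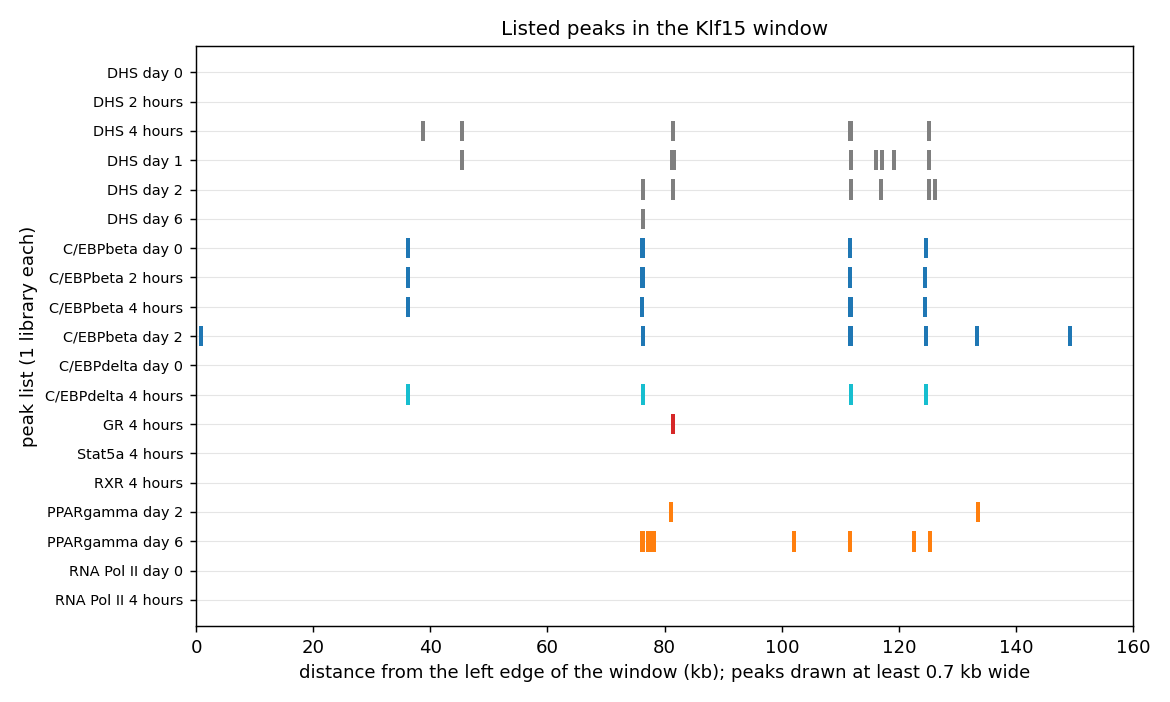
Peaks of the 19 lists (y axis) along the Klf15 window (x axis, kb from its left edge), narrow ones widened so that they can be seen. The same 4 C/EBPbeta sites appear on day 0, at 2 hours and at 4 hours, PPARgamma has 7 peaks on day 6, and the rows of Stat5a, RXR and RNA Pol II are empty.

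PPARgamma had 2 peaks in the Klf15 window on day 2 and 7 on day 6, and no site was shared between the 2 days. The whole lists held 3168 and 5493 peaks. No genome-wide share of day 2 sites kept on day 6 was computed, so the lack of shared sites is a description. Of the 9 sites, 7 were of day 6 alone (77.8%, interval 40 to 97.2), against 51.7% genome-wide. Of the day 6 peaks, 3 lay next to each other over 2883 bp (chr6:90415725-90418607), with gaps of 318 and 72 bp. The first, 894 bp wide, covered the C/EBPbeta site of 90415894 and the day 6 DHS peak, and the other two, 564 and 1035 bp wide, held no peak of another list. In all, 4 of the 7 day 6 peaks held no other list, among them chr6:90441795-90442293 and chr6:90462301-90462977. No genome-wide share was computed for such peaks, so this count is a description. The 2 of day 2 were the GR site and chr6:90473258-90473799, where C/EBPbeta was listed on day 2.

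RNA Pol II was listed at neither time in the Klf15 window, so no change in it can be described. Heights below the authors' threshold are not in the lists. With the window widened by 50 kb on each side, 1 RNA Pol II region lost by 4 hours and 1 kept came into it.

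The pattern of the wide Klf9 region over the 19 lists was compared with that of all other merged regions by the number of lists in which presence differed. Of 77866 other regions, 21 differed in none, 167 in 1 and 505 in 2. The 3 nearest in width among the 21 were chr5:5688140-5689676 (1537 bp), chr19:29912509-29914004 (1496 bp) and chr16:37727928-37729375 (1448 bp). Each was thus in the same 11 lists, narrower than the 2202 bp of the Klf9 region, and in no DHS list of day 0, day 2 or day 6.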

How the data were processed

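The authors deposited 1 list of peak positions per library, 6 from DHS-seq and 13 from ChIP-seq; the input sample was not analysed here. Each line of the lists the authors deposited gives chromosome, start and end in bp, and no score, height or count. Build mm9 is taken from the submitters' processing notes; peak caller, threshold and pooling are not given in the sources used here. Depth and threshold, which are unknown, can change a list's length and so the number of peaks in a window.

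Peaks with any overlap of a window were taken. Peaks of the lists compared (all 6 DHS lists, all 4 of C/EBPbeta, and so on) were merged where they shared at least 1 bp, and a list counted as present in a region when any of its peaks overlapped it. With 1 library per group no test was made. Genome-wide shares stand beside counts of gained, lost, kept and shared regions where they were computed, and 95% Clopper-Pearson intervals cover counting error only. The intervals treat neighbouring regions as independent, which they are not, so in both windows they are no test. Same-length stretches tile each chromosome, without Y, up to its last peak. Merging was tested on simulated lists. Named regions are those with 3 or more factors, RNA Pol II or PPARgamma, the region in most lists, and up to 3 with the pattern nearest to the wide region; others were named after their values were seen. Windows, lists and rules were chosen with earlier results of these data known. Promoters came from RefSeq by symbol, and both genes matched. Alternatives were 50% overlap, joining up to 500 bp, 200 bp peaks, wider peaks only, equal list length and wider windows. Python 3.11.15, SciPy 1.17.1, NumPy 2.4.6 and Matplotlib 3.10.9 were used.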

Additional observations from a re-analysis of the deposited data

How the results depend on the processing

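Of 108 recomputed counts, 79 stayed within 1.5 times the reported count and 29 did not. The 79 include counts of 0 that stayed 0, as most Klf15 counts of RNA Pol II and of shared factors did. The total is therefore no measure of how stable the other counts are. The lists have no score, so stricter ones were made by width. Asking that peaks share 50% of the shorter one moved no count beyond the limit, but split the wide Klf9 region into its clusters. Joining peaks up to 500 bp apart left 4 Klf9 DHS regions absent on day 6 in place of 7, and 1 RNA Pol II region gained, 0 lost and 2 kept in place of 3, 1 and 1. With 200 bp peaks, 1 region with all 5 factors remained in place of 2, the narrower one. The wider peaks of each list alone gave, for Klf9, 14 merged regions in place of 27, 6 DHS regions gained in place of 10, 3 C/EBPbeta regions gained in place of 7, 1 RNA Pol II region gained and 1 region with all 5 factors, the wide one; for Klf15, 8 merged regions in place of 18, 2 DHS regions gained and 2 absent on day 6 in place of 5 each, and 1 C/EBPbeta region gained in place of 0. At equal list length, Klf9 had 8 merged regions, 5 DHS regions gained, 3 absent on day 6, 4 C/EBPbeta regions gained, 2 regions with 3 or more factors in place of 6 and 1 with all 5, again the wide one, and Klf15 had 2 merged regions and 0 DHS regions gained or absent on day 6. These settings leave fewer peaks by construction. Windows wider by 50 kb on each side gave 3 kept RNA Pol II regions for Klf9 and, for Klf15, 30 merged regions, 4 C/EBPbeta regions gained, 1 RNA Pol II region lost, 1 kept and 1 region with 3 or more factors in place of 0. No alternative removed a replicate, since each group had 1 library.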

Other observations

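C/EBPbeta had sites listed on day 2 alone in both windows, 3 in each. In the Klf9 window these were chr19:23012231-23012725, chr19:23141242-23141680, which overlaps PPARgamma of day 2 and day 6, and chr19:23258749-23259241. In the Klf15 window they were chr6:90340526-90341119, chr6:90473146-90473586, which overlaps PPARgamma of day 2, and chr6:90489128-90489419. No genome-wide share was computed for such sites, so these positions are a description.

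Listed sites were unevenly spaced. The longest stretch with no peak in any list was 67.2 kb in the Klf9 window, from 23141699 to 23208883, and 34.7 kb in the Klf15 window, from 90341120 to 90375837. Regions in 1 list alone made up 8 of 27 merged regions for Klf9 and 10 of 18 for Klf15. Their genome-wide share was not computed.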
